A study of Homo sapiens with 12 samples.

Results

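PEG10 and SGCE are neighbouring imprinted genes on chromosome 7 whose transcription starts lie back to back. They were chosen by name, as a set of 2 of the 56747 genes present in both deposited count tables, because PEG10 transcripts were much lower after palbociclib in the libraries labelled C4-2 and because PEG10 has been tied to RB1 loss and neuroendocrine prostate cancer. That choice used the C4-2 comparison, so the C4-2 values of both genes are given as a description with no test. The DU145 comparison, which the stated reason for the choice did not use, is tested. Earlier results of these data were known when the genes were chosen, so the DU145 test was not blind to them. The series measured RNA of 2 human prostate cancer cell lines by sequencing, with each line given either palbociclib or the solvent dimethyl sulfoxide (DMSO), which makes 4 groups. C4-2 (spelled C42 in the labels) was derived from LNCaP, and its RB1 is intact. DU145 (spelled Du145) came from a brain metastasis and carries no functional RB1. Palbociclib blocks the kinases CDK4 and CDK6, which otherwise phosphorylate RB1 and so free E2F transcription factors. No allele or agent other than palbociclib or DMSO is named for any group. Both lines were grown in RPMI-1640 with fetal serum. How much palbociclib was given, and for how long, is not stated in the labels.

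PEG10 (paternally expressed 10) is a domesticated gene of a Ty3/gypsy retrotransposon. It makes a gag-like protein from its first reading frame and, when ribosomes slip back by a base, a longer gag-pol-like protein. It is needed for placenta formation in mice, and in prostate cancer it is known as a gene that E2F factors activate once RB1 is lost. SGCE encodes epsilon-sarcoglycan, a membrane protein of the dystrophin-associated complex, and its loss from the paternal copy causes myoclonus-dystonia. The maternal copies of both genes are normally silenced through methylation of the shared start region.

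The deposited DU145 table places PEG10 (ENSG00000242265) on the plus strand of hg38 at chr7:94656325-94669695 and SGCE (ENSG00000127990) on the minus strand at chr7:94524204-94656572. The gene spans overlap by 248 bases, and the exons share 219 bases on opposite strands, which is 3.27% of the exon bases of PEG10 and 1.05% of those of SGCE. The C4-2 table was counted without strand information, so reads from the shared bases cannot be assigned to either gene there. The SGCE span also holds exons of CASD1. The feature that sets PEG10 apart from an ordinary mRNA is its ribosomal slip site, which is shown because the counts used here sum over both proteins made from it. In the GENCODE release 29 transcript PEG10-202 (6618 bases) the site lies within chr7:94664474-94664552, on the plus strand of GRCh38. The heptamer at which ribosomes slip is in capitals.
PEG10 slip site: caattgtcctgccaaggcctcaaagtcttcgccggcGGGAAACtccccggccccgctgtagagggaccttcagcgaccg
The heptamer begins at base 954 of the coding sequence. Read without a slip, the frame stops after 975 coding bases, and read with a slip back at the heptamer it continues for 2124 bases. The heptamer was present in 6 of the 9 annotated PEG10 transcripts. A count per gene does not tell which of the proteins was made.

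Of 12 labelled libraries, 11 were used. Every value of C4-2 DMSO replicate 3 was 0, so that C4-2 comprised 3 palbociclib libraries against 2 DMSO libraries, and DU145 comprised 3 against 3. Library totals lay between 2608851 and 3489659 counts in C4-2 and between 16108999 and 16674393 counts in DU145. The libraries labelled C4-2 went against what is known of that line. KLK3 (prostate-specific antigen) was at 0 counts in all of them, as were KLK2, KLK4, ACP3, FOLH1 and NPY, and these made up 6 of the 18 luminal prostate markers. Fibronectin (FN1) had 18900 ± 115 CPM (counts per 1000000 counts of the library) in the palbociclib libraries labelled C4-2, against 20900 ± 69.8 CPM in the DMSO libraries (SD, n = 3 and 2). The name C4-2 therefore stands below for the libraries that carry that label. RB1 transcripts were present in both lines. In C4-2 they averaged 60.5 ± 6.76 CPM in palbociclib libraries and 62.8 ± 7.34 CPM in DMSO libraries (SD, n = 3 and 2). In DU145 they averaged 97.4 ± 6.39 and 88.2 ± 8.22 CPM (SD, n = 3 each). In DU145 both libraries numbered 3 stood apart from the others of their group. The chi-square per degree of freedom between replicates, where 1 is counting noise, was 5.41 to 8.34 in the 4 pairs that held a library numbered 3 and 2.36 to 2.37 in the 2 pairs that did not. Within C4-2 groups it was 1.14 to 1.18, near counting noise. Nothing in the labels tells separate cultures from repeat libraries of the same RNA. The p-values therefore reflect the spread between libraries only, and that spread may be technical.

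PEG10 was lower after palbociclib in both lines. In C4-2 the palbociclib libraries had 597, 526 and 674 PEG10 counts, equal to 206.6, 201.6 and 199.5 CPM, and the DMSO libraries had 2830 and 2477 counts, equal to 811.0 and 821.4 CPM. The 3 palbociclib libraries lay close together and far below both DMSO libraries. The means were 203 ± 3.64 CPM with palbociclib and 816 ± 7.36 CPM with DMSO (SD, n = 3 and 2), a log2 fold change of -2.06 (SE 0.0408), or 4.16-fold lower. This is the value that chose the gene, in a comparison in which 51.8% of all genes passed the threshold in either direction. Of the 11943 genes fitted in C4-2, 46 (0.385%) had a lower log2 fold change.

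In DU145, which the stated reason for the choice did not use, the palbociclib libraries had 1327, 1233 and 1177 PEG10 counts, equal to 80.1, 74.79 and 70.59 CPM. The DMSO libraries had 3310, 3195 and 3275 counts, equal to 205.5, 197.8 and 199.7 CPM. The groups did not overlap, and the highest palbociclib library lay far below the lowest DMSO library. PEG10 averaged 75.2 ± 4.77 CPM with palbociclib and 201 ± 3.98 CPM with DMSO (SD, n = 3 each). The log2 fold change was -1.40 (SE 0.0681, 95% confidence interval -1.53 to -1.26), or 2.63-fold lower, with an adjusted p of 2.8e-11 in edgeR's quasi-likelihood test with Benjamini-Hochberg adjustment. PEG10 was lower in 3 of 3 palbociclib libraries, and without both libraries numbered 3 its log2 fold change was -1.35 (adjusted p 8.65e-16). In DU145 58.1% of the 15361 genes tested passed this threshold in either direction, so that the call alone sets PEG10 apart little, and its size is read against the ranks: 575 genes (3.74%) had a lower log2 fold change. In bulk RNA, fewer cells that express a gene and less RNA per cell cannot be told apart.

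SGCE did not follow its neighbour. In C4-2 the palbociclib libraries had 298, 277 and 320 SGCE counts, equal to 103.1, 106.2 and 94.73 CPM, and the DMSO libraries had 302 and 267 counts, equal to 86.54 and 88.54 CPM. All 3 palbociclib libraries were above both DMSO libraries by a small margin. The log2 fold change was 0.16 (SE 0.0792), given without a test, and 4527 of 11943 genes (37.9%) had a higher one.

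In DU145 the palbociclib libraries had 975, 970 and 907 SGCE counts, equal to 58.85, 58.83 and 54.39 CPM, and the DMSO libraries had 773, 870 and 807 counts, equal to 47.99, 53.87 and 49.22 CPM. The groups did not overlap, although the lowest palbociclib library and the highest DMSO library were close. SGCE averaged 57.4 ± 2.57 CPM with palbociclib and 50.4 ± 3.10 CPM with DMSO (SD, n = 3 each). It passed the threshold as higher, by a log2 fold change of 0.21 (SE 0.0769, 95% confidence interval 0.06 to 0.36), or 1.16-fold, with an adjusted p of 0.0248 in edgeR's quasi-likelihood test. This call rested on single libraries: leaving out palbociclib replicate 1 raised the adjusted p to 0.0705, leaving out palbociclib replicate 2 to 0.0757, leaving out DMSO replicate 1 to 0.138, and leaving out DMSO replicate 3 to 0.0511. Without both libraries numbered 3 the log2 fold change was 0.23 (adjusted p 0.00605). Of all genes tested, 28.8% were called higher in this comparison, and 34.1% had a higher log2 fold change than SGCE.

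**Figure D1:**
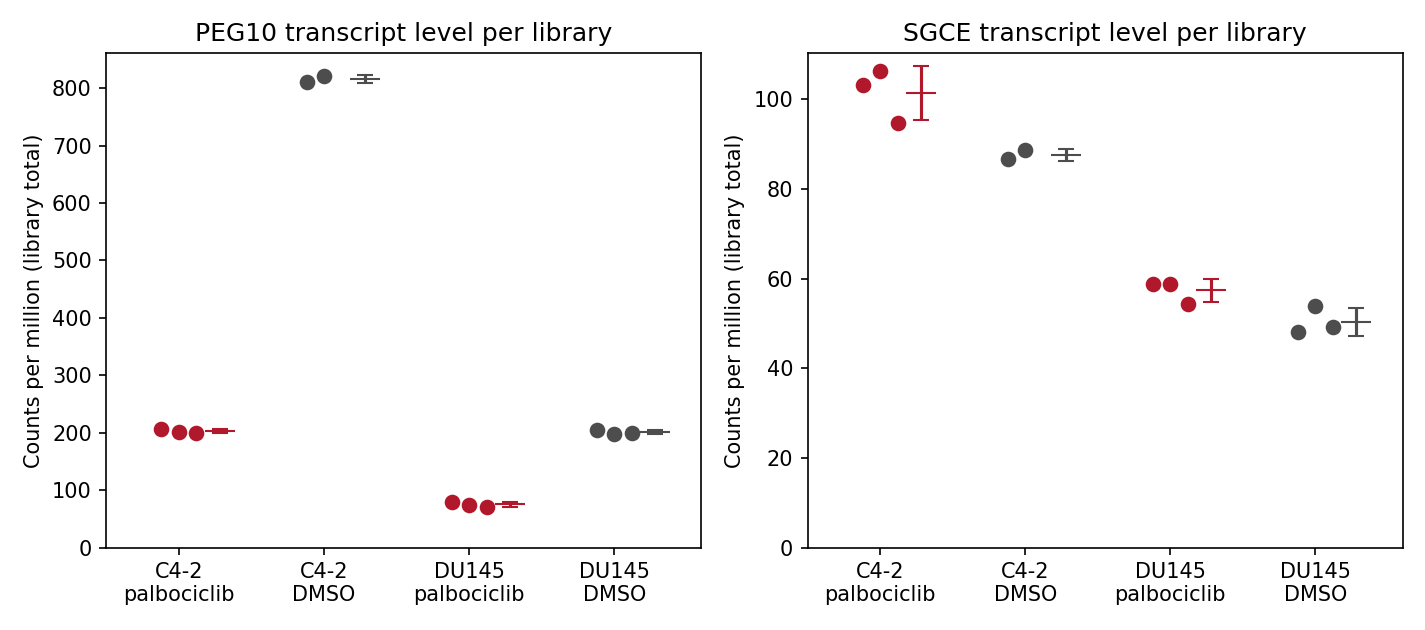
PEG10 (left) and SGCE (right) transcript levels in CPM, with 1 point per library and the group mean ± SD beside the points; palbociclib is in red and DMSO in grey. PEG10 lay at 199.5 to 206.6 CPM with palbociclib against 811.0 and 821.4 CPM with DMSO in C4-2, and at 70.59 to 80.1 against 197.8 to 205.5 CPM in DU145, whereas SGCE was slightly higher with palbociclib in both lines.

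Ordered by CPM, PEG10 was highest in C4-2 with DMSO, next in C4-2 with palbociclib and in DU145 with DMSO, and lowest in DU145 with palbociclib. The middle groups did not differ beyond their spread, since the C4-2 palbociclib libraries (199.5 to 206.6 CPM) overlapped the DU145 DMSO libraries (197.8 to 205.5 CPM). The tables of the lines were counted with different annotations, so this order across lines is approximate. Among genes with any count, PEG10 ranked 967 of 24454 in C4-2 with palbociclib and 107 of 21803 in C4-2 with DMSO. In DU145 it ranked 3381 of 27460 with palbociclib and 929 of 27012 with DMSO. SGCE ranked 2284 and 2663 in C4-2 with palbociclib and DMSO, and 4320 and 4696 in DU145. SGCE levels were highest in C4-2 with palbociclib, followed by C4-2 with DMSO, then by DU145 with palbociclib and last by DU145 with DMSO. The ranges of neighbouring groups in this order did not overlap.

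Per length, PEG10 lay above SGCE in C4-2 with DMSO whichever length was used. In the palbociclib groups the order depended on the length. In DU145 with DMSO, PEG10 lay above SGCE over all exons. Over the principal transcripts the genes did not differ there beyond their spread, and in replicate 2 SGCE was higher (31.5 against 29.9 RPKM). On the RPKM scale (CPM divided by length in kilobases) over all annotated exons (6689 bases for PEG10 and 20884 for SGCE), PEG10 had 11.2 RPKM and SGCE 2.75 RPKM in DU145 with palbociclib, against 30.1 and 2.41 RPKM in DU145 with DMSO. In C4-2 PEG10 had 30.3 RPKM and SGCE 4.85 RPKM with palbociclib, against 122 and 4.19 RPKM with DMSO. SGCE has 99 annotated transcripts, and its principal transcript is 1709 bases long. Over the principal transcripts alone, PEG10 had 11.4 RPKM and SGCE 33.6 RPKM in DU145 with palbociclib, against 30.4 and 29.5 RPKM with DMSO, values within their spread in the DMSO libraries (SD 0.601 and 1.82, n = 3 each). In C4-2 they had 30.6 and 59.3 RPKM with palbociclib, against 123 and 51.2 RPKM with DMSO. The comparison of each gene with itself between treatments does not depend on length.

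The count ratio of PEG10 to SGCE within a library needs no scaling between libraries. In DU145 it was 1.36, 1.27 and 1.3 in the palbociclib libraries, against 4.28, 3.67 and 4.06 in the DMSO libraries. On the log2 scale these averaged 0.39 ± 0.05 with palbociclib and 2.0 ± 0.11 with DMSO (SD, n = 3 each), a difference of -1.61. The groups did not overlap, and the exact two-sided permutation test over libraries gave p = 0.1, the smallest value that 3 libraries against 3 can give. In C4-2 the ratio was 2.0, 1.9 and 2.1 with palbociclib, against 9.36 and 9.26 with DMSO, a log2 difference of -2.22 given without a test. In all 11 libraries PEG10 had more counts than SGCE.

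**Figure D2:**
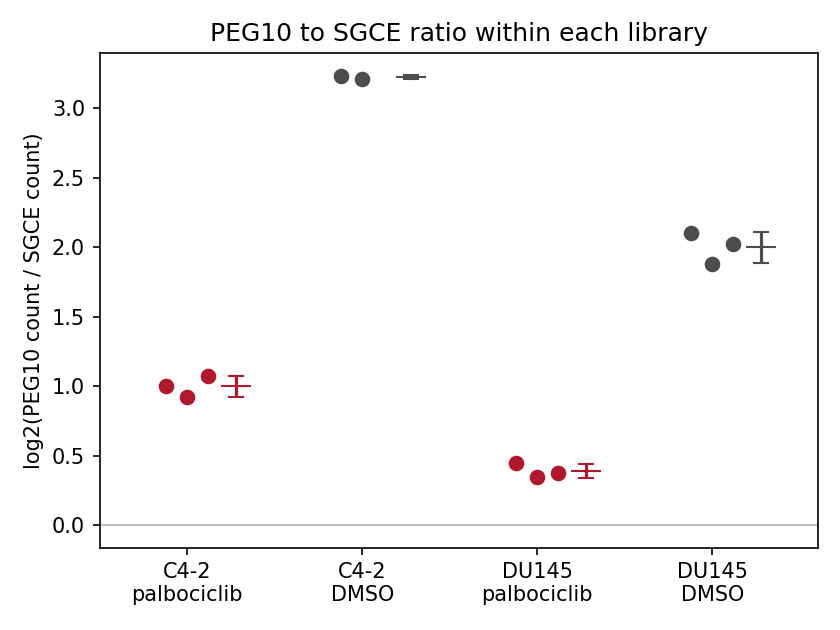
The log2 ratio of PEG10 counts to SGCE counts within each library (vertical axis), with 1 point per library and the group mean ± SD beside the points; 0 means equal counts. Palbociclib libraries (red) lay between 0.35 and 1.07 and DMSO libraries (grey) between 1.88 and 3.23.

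A joint fit of both lines over 18139 genes gave the difference between the line responses, with the C4-2 log2 fold change subtracted from that of DU145. It was 0.70 (SE 0.0872) for PEG10 and 0.08 (SE 0.12, 95% confidence interval -0.15 to 0.32) for SGCE. Both values include the comparison that chose PEG10 and are given without a test (33.4% of all genes passed the threshold in this fit). With library totals in place of TMM scaling the PEG10 value was 0.59, while the median over all genes was -0.12 in place of -0.02.

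The genes around the pair did not move together. Of 11 listed neighbours that start within 1 Mb of the PEG10 start, 6 had enough counts to test in each line. In C4-2, 3 were called higher and 2 lower, against 25.2% and 26.6% of all genes. In DU145, 2 were called higher and 4 lower, against 28.8% and 29.2% of all genes. COL1A2, PON1, PON3 and ASB4 had at most 6 counts in any library.

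On the SGCE side, CASD1, which adds acetyl groups to sialic acids and starts 147.1 kb before PEG10, had a log2 fold change of 0.14 (SE 0.128, adjusted p 0.401) in C4-2. In DU145 CASD1 averaged 8.61 ± 0.641 CPM with palbociclib and 11.5 ± 2.33 CPM with DMSO (SD, n = 3 each), a log2 fold change of -0.39 (adjusted p 0.0251, edgeR). That call was lost when palbociclib replicate 1 was left out (adjusted p 0.0875), or when DMSO replicate 2 was (-0.22, adjusted p 0.202). BET1, a SNARE protein of transport between endoplasmic reticulum and Golgi, starts 651.9 kb before PEG10 and was called higher in both lines. It averaged 62.6 ± 6.15 CPM with palbociclib and 31.9 ± 1.5 CPM with DMSO in C4-2 (SD, n = 3 and 2), and 60.1 ± 2.88 and 47.7 ± 4.77 CPM in DU145 (SD, n = 3 each). GNG11, a G protein gamma subunit that starts 734.6 kb before PEG10, averaged 126 ± 2.86 CPM with palbociclib and 89.2 ± 1.37 CPM with DMSO in C4-2, and 61.2 ± 3.88 and 92.1 ± 4.44 CPM in DU145. It was called higher in C4-2 (log2 fold change 0.45, adjusted p 2.13e-06, edgeR) and lower in DU145 (-0.56, adjusted p 3.37e-06). TFPI2, a serine protease inhibitor, averaged 373 ± 17.1 CPM with palbociclib and 287 ± 0.853 CPM with DMSO in C4-2 and had at most 3 counts in any DU145 library.

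Beyond the 3' end of PEG10, PPP1R9A was the nearest listed gene. It encodes neurabin, an actin-binding partner of protein phosphatase 1, and is itself imprinted in some tissues. It averaged 18.2 ± 0.845 CPM with palbociclib and 31.5 ± 0.423 CPM with DMSO in C4-2 (SD, n = 3 and 2), and 13.7 ± 2.09 and 21.1 ± 2.40 CPM in DU145 (SD, n = 3 each). It was called lower in both lines, with log2 fold changes of -0.84 (SE 0.147, adjusted p 5.97e-06) in C4-2 and -0.60 (SE 0.12, adjusted p 0.000385) in DU145 by edgeR. Farther out, PON2, an antioxidant lactonase, was called lower in DU145 (-0.29, adjusted p 0.00594). In C4-2 its log2 fold change was -0.17 (adjusted p 0.0146), a call that was lost in DESeq2 (adjusted p 0.154). It was also lost when palbociclib replicate 2 (adjusted p 0.0527) or DMSO replicate 1 (0.07) was left out. PDK4, a kinase that turns off pyruvate dehydrogenase, was called higher in DU145, at 45.4 ± 5.02 CPM with palbociclib against 34.0 ± 2.72 CPM with DMSO (SD, n = 3 each, adjusted p 0.000515, edgeR). It had 2 to 13 counts in the C4-2 libraries, too few to test.

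**Figure D3:**
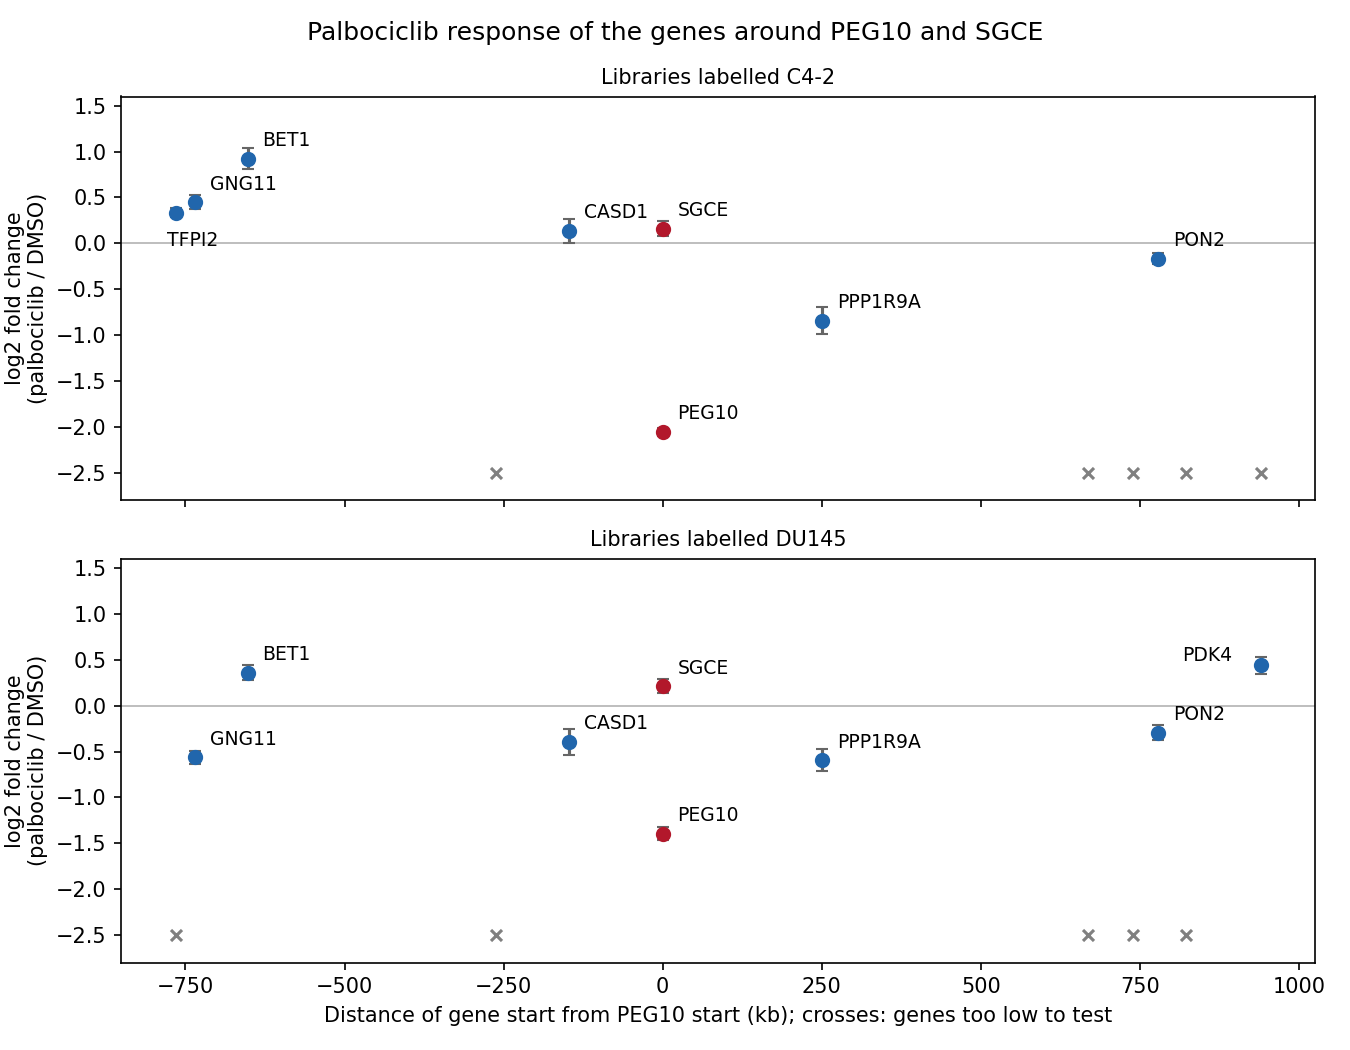
Log2 fold change of palbociclib over DMSO (vertical axis, ± SE) for PEG10 and SGCE (red) and the listed genes within 1 Mb (blue) against the distance of their start from the PEG10 start in kb, in C4-2 (top) and DU145 (bottom); crosses stand for genes too low to test. PEG10 had the lowest value of the tested genes shown in both lines, at -2.06 and -1.40, while SGCE, which starts 0.2 kb away, lay at 0.16 and 0.21.

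The PEG10 values were next set beside the genes known to control it. E2F1, an activating E2F factor, averaged 9.64 ± 2.20 CPM with palbociclib and 41.9 ± 0.834 CPM with DMSO in C4-2 (SD, n = 3 and 2), a log2 fold change of -2.18 (adjusted p 5.75e-15, edgeR). In DU145 it averaged 135 ± 12.2 CPM with palbociclib and 187 ± 9.10 CPM with DMSO (SD, n = 3 each), a log2 fold change of -0.45 (adjusted p 5.86e-05). E2F2, another activating E2F factor, was called lower in C4-2 (-2.74) and in DU145 (-0.20, adjusted p 0.0445, edgeR). E2F3 was called lower in C4-2 (-0.23, adjusted p 0.0122) and higher in DU145 (0.83). RB1 itself did not pass the test in C4-2 (-0.10, adjusted p 0.41) or in DU145 (0.17, adjusted p 0.0693), where it passed without palbociclib replicate 3 (0.22, adjusted p 0.0124). The part of these genes in the PEG10 values was not tested.

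PEG10 lay within the range of the replication genes that E2F factors drive in C4-2, and near the low end of their range in DU145. Of 62 listed E2F and S-phase genes, all were tested in C4-2, where 59 were called lower and 0 higher by edgeR (26.6% of all genes were called lower), with a median log2 fold change of -1.45 against 0.0016 over all genes. The remaining 3 (CCNE1, POLE2 and E2F7) did not pass the test. The MCM helicase subunit MCM7 averaged 52.2 ± 2.15 CPM with palbociclib and 218 ± 3.58 CPM with DMSO, and the ribonucleotide reductase subunit RRM2 averaged 43.6 ± 4.09 and 305 ± 14 CPM (SD, n = 3 and 2). PEG10 was lower than most of the list: 12 of the 62 genes had a lower log2 fold change in C4-2. In DU145, 61 of the genes were tested, of which 30 were called lower and 11 higher (29.2% and 28.8% of all genes), with a median of -0.17 against -0.0074 over all genes. Only EXO1, an exonuclease of DNA repair (log2 fold change -1.85, SE 0.0774), and PRIM1, the catalytic subunit of primase (-1.44, SE 0.0988), lay below PEG10 among the 61. FEN1, the flap endonuclease, and ORC6, a subunit of the origin recognition complex, were called higher in DU145 (0.79 and 0.91).

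**Figure D4:**
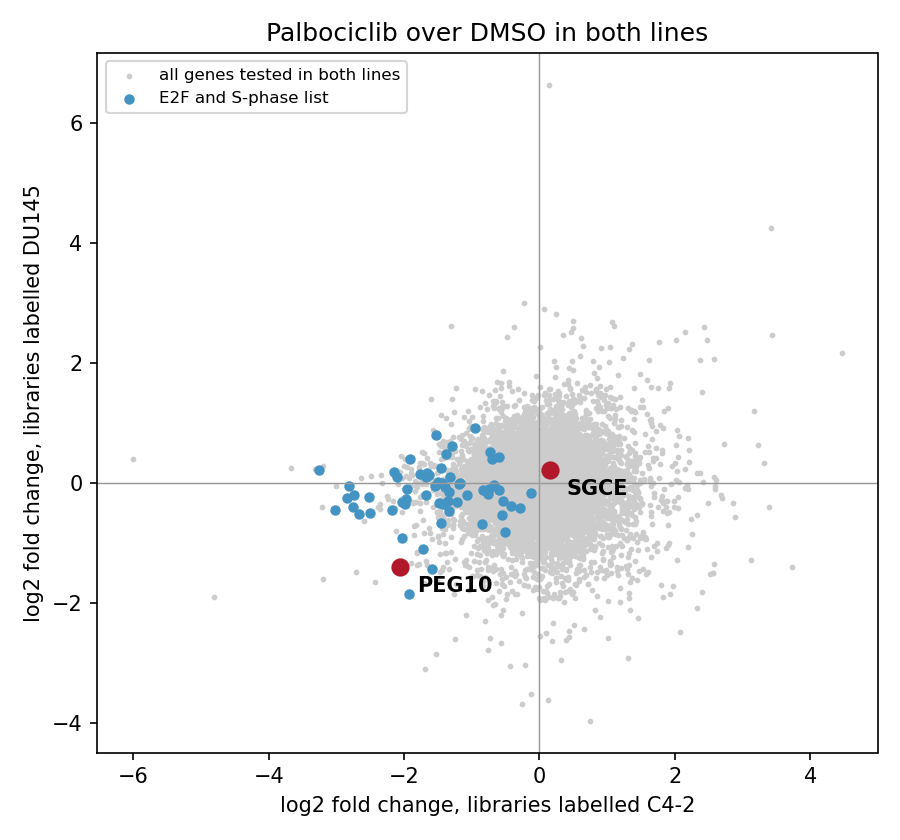
Log2 fold change of palbociclib over DMSO in C4-2 (horizontal axis) against DU145 (vertical axis) for the 11007 genes tested in both lines (grey), with the E2F and S-phase list in blue and PEG10 and SGCE in red. PEG10 lay at -2.06 and -1.40, beyond most of the blue genes on the DU145 axis, and SGCE lay near the centre at 0.16 and 0.21.

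Likeness to each gene was measured over the 11 libraries as the root mean square difference of log2 CPM, after centring each line on its own mean, among 9525 genes with at least 5 CPM on average in each line. This measure uses the C4-2 comparison and is a description. Closest to PEG10 were ID1, an inhibitor of helix-loop-helix transcription factors (difference 0.172), NEURL1B, a ubiquitin ligase of Notch signalling (0.187), CDKN2C, the CDK4 and CDK6 inhibitor p18 (0.189), EXO1 (0.203), LIG1, the DNA ligase of replication (0.21), and PRIM1 (0.216). ID1 averaged 16.3 ± 1.27 CPM with palbociclib and 50.3 ± 1.05 CPM with DMSO in C4-2 (SD, n = 3 and 2), and 134 ± 7.23 and 352 ± 22.5 CPM in DU145 (SD, n = 3 each). CDKN2C averaged 24.8 ± 1.87 and 78.7 ± 3.41 CPM in C4-2, and 61.2 ± 4.99 and 135 ± 6.91 CPM in DU145, in the same order of treatments. EXO1, LIG1 and PRIM1 are members of the E2F and S-phase list. SGCE ranked 6462 in likeness to PEG10, with a difference of 0.944. Closest to SGCE were MAPK6, an atypical MAP kinase (0.0446), PIP4K2A, a phosphoinositide kinase (0.0474), OCIAD1 (0.0477), PHF20, a reader of histone methylation (0.0481), PTPN11, the phosphatase SHP2 (0.0522), and ASAP1, a GTPase-activating protein for ARF proteins (0.0525). Their log2 fold changes lay between 0.09 and 0.27 in C4-2 and between 0.18 and 0.21 in DU145.

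Imprinted genes at other loci showed no common direction. Of 66 listed, 64 were in the tables. In C4-2, 30 were tested, of which 9 were called higher and 6 lower (25.2% and 26.6% of all genes), with a median log2 fold change of 0.19, and DESeq2 called 3 lower. In DU145, 35 were tested, of which 8 were called higher and 15 lower (28.8% and 29.2% of all genes), with a median of -0.14. IGF2R, a receptor that clears IGF2, was called higher in both lines, at 879 ± 18.4 CPM with palbociclib against 578 ± 3.74 CPM with DMSO in C4-2, and 425 ± 22.4 and 274 ± 5.90 CPM in DU145. CDKN1C, the CDK inhibitor p57, was close to PEG10 in DU145, at 24.7 ± 2.30 CPM with palbociclib against 67.6 ± 3.37 CPM with DMSO (SD, n = 3 each), a log2 fold change of -1.43 (adjusted p 4.2e-10, edgeR). GRB10, an adaptor that dampens insulin receptor signalling, was called higher in C4-2, at 270 ± 6.36 CPM with palbociclib against 134 ± 2.02 CPM with DMSO (SD, n = 3 and 2), and lower in DU145, at 51.4 ± 4.07 and 88.8 ± 4.76 CPM (SD, n = 3 each). PEG3, a paternally expressed zinc finger gene, was at 0 counts in all 11 libraries.

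Other genes derived from retrotransposon gag sequences that could be tested did not fall as PEG10 did in C4-2 or DU145. In C4-2, 10 of 26 were tested, of which 2 were called higher and 0 lower by edgeR (25.2% and 26.6% of all genes), and their log2 fold changes ranged from -0.41 to 0.61. RTL8B had the lowest (-0.41, adjusted p 0.158). In DU145, 13 were tested, of which 5 were called higher and 1 lower (28.8% and 29.2% of all genes), over a range of -0.66 to 1.67. The gene called lower was RTL6, at 68.7 ± 1.05 CPM with palbociclib against 93.5 ± 6.80 CPM with DMSO (SD, n = 3 each), a log2 fold change of -0.42 (adjusted p 9.19e-05, edgeR). MOAP1, a gag-related activator of apoptosis, was called higher, at 69.7 ± 2.49 CPM with palbociclib against 34.5 ± 1.46 CPM with DMSO. RTL8A, RTL8B and RTL8C are near-identical copies whose reads may be split between them, and their values are uncertain. In C4-2 the number called higher was 1 in DESeq2. RTL3, which did not pass the filter in C4-2, averaged 0.0987 ± 0.171 CPM with palbociclib and 3.40 ± 0.35 CPM with DMSO (SD, n = 3 and 2), from 0 to 11 counts per library. It was called lower in C4-2 with no filter, and when palbociclib replicate 1 or 2 was left out. It was also called lower with a filter at 1 CPM. That filter was looser than the main one in C4-2, with 14753 genes tested against 11943.

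The partners of SGCE in the dystrophin-associated complex were either called lower or not called in DU145. Of 27 listed genes, 16 were tested there, 6 were called lower and 0 higher by edgeR (29.2% and 28.8% of all genes), with a median log2 fold change of -0.22. With library totals in place of TMM scaling 10 were called lower. The syntrophin SNTB1 averaged 3.46 ± 0.557 CPM with palbociclib and 9.25 ± 0.728 CPM with DMSO, and the dystrophin homologue utrophin (UTRN) averaged 46.9 ± 3.99 and 67.7 ± 4 CPM (SD, n = 3 each). In C4-2, 18 were tested, 5 called higher and 4 lower (25.2% and 26.6% of all genes). SNTB1 was called higher there, at 95 ± 11 CPM with palbociclib against 48.6 ± 8.25 CPM with DMSO (SD, n = 3 and 2). The C4-2 counts were sensitive to single libraries: 3 were called higher without DMSO replicate 2, and 2 were called lower without palbociclib replicate 2 or 3. DESeq2 called 3 higher and 1 lower. Beta-sarcoglycan (SGCB), the other sarcoglycan with enough counts in both lines, had log2 fold changes of 0.06 (SE 0.0709) in C4-2 and 0.01 (SE 0.111) in DU145.

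Genes that act on PEG10 protein moved in either direction. Of 24 listed regulators, turnover factors and partners, 23 were tested in each line. In C4-2, 7 were called higher and 7 lower (25.2% and 26.6% of all genes), and in DU145, 6 were called higher and 9 lower (28.8% and 29.2%). UBQLN2, a ubiquilin that clears PEG10 protein, was called higher in C4-2 (57.7 CPM with palbociclib and 38.5 CPM with DMSO, log2 fold change 0.54, SE 0.108). In DU145 its log2 fold change was 0.12 (SE 0.0749, adjusted p 0.171). Its relative UBQLN1 was called higher in DU145, at 272 ± 14 CPM with palbociclib against 177 ± 2.60 CPM with DMSO (SD, n = 3 each), and lower in C4-2, at 199 ± 6.31 and 223 ± 2.11 CPM (SD, n = 3 and 2). UBE3A, the ubiquitin ligase lost in Angelman syndrome, and USP9X, a deubiquitinase, were called higher in C4-2 (0.31 and 0.28). The pocket protein RBL1 (p107) was called lower in C4-2 (-1.72) and in DU145 (-0.62). These are transcript levels, and PEG10 protein was not measured in the files used here.

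Most genes of the neuroendocrine state, the setting in which PEG10 is best known in the prostate, had too few counts to test. Of 30 listed, 11 were tested in C4-2 and 12 in DU145, and the transcription factor gene INSM1 and the granule gene SCG3 were at 0 counts in every library of both lines. The summed level of the list was 941 to 974 CPM with palbociclib and 1090 to 1100 CPM with DMSO in C4-2, and 771 to 821 and 740 to 773 CPM in DU145. In C4-2, 4 were called higher and 4 lower (25.2% and 26.6% of all genes), with 2 higher in DESeq2 or without either DMSO library. In DU145, 3 were called higher and 5 lower (28.8% and 29.2% of all genes), with 3 lower without palbociclib replicate 1 or 2 and 2 lower without DMSO replicate 2. STMN1, a microtubule regulator of dividing cells, was called lower in C4-2, at 46.1 ± 2.40 CPM with palbociclib against 213 ± 12.6 CPM with DMSO (SD, n = 3 and 2). AURKA, a mitotic kinase, was called lower in C4-2 (-1.12) and higher in DU145 (0.70). UCHL1, a neuronal ubiquitin hydrolase, was called higher in C4-2, at 527 ± 3.04 and 366 ± 1.64 CPM with palbociclib and DMSO. UCHL1 was thus the largest member of the C4-2 sum and rose, whereas the fall of that sum lay mainly in STMN1, AURKA and EZH2. AURKA averaged 76.8 ± 7.30 CPM with palbociclib and 161 ± 7.24 CPM with DMSO there, and EZH2 57.4 ± 5.26 and 115 ± 4.64 CPM (SD, n = 3 and 2). CHGA and CHGB were at 0 counts in C4-2.

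**Figure D5:**
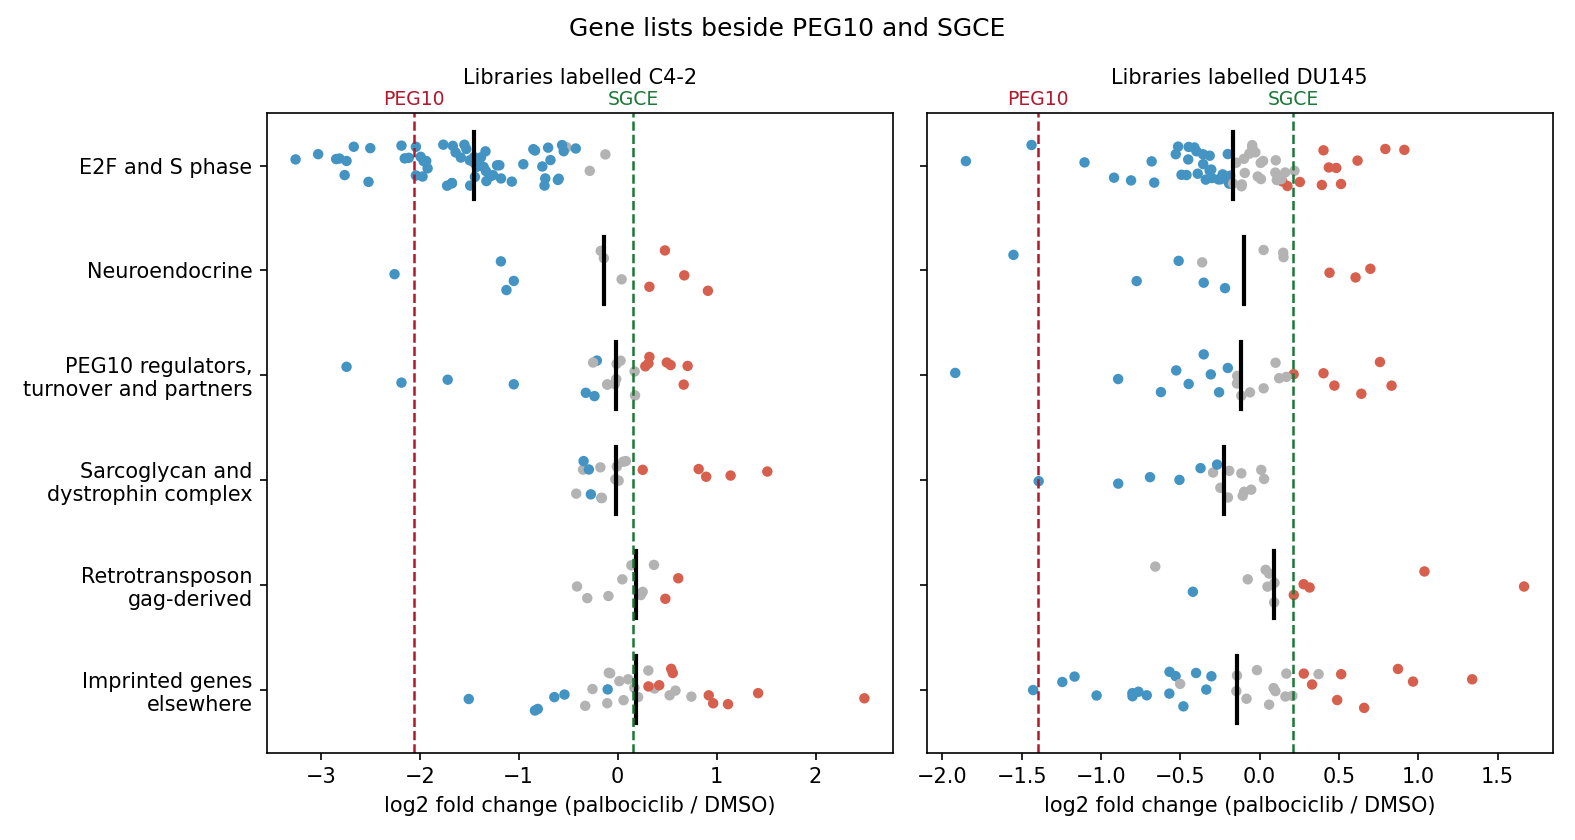
Log2 fold change of palbociclib over DMSO (horizontal axis) for the tested genes of 6 lists in C4-2 (left) and DU145 (right), with 1 point per gene, red where called higher, blue where called lower and grey otherwise; black bars are list medians and dashed lines mark PEG10 and SGCE. In C4-2 the E2F and S-phase list had a median of -1.45, with PEG10 at -2.06, and in DU145 its median was -0.17, with PEG10 at -1.40.

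The summed levels of luminal and of mesenchymal markers were, like PEG10, lower with palbociclib in both lines. Single luminal genes moved in either direction. In C4-2, 6 of 18 were tested, of which 1 was called higher and 3 lower by edgeR (25.2% and 26.6% of all genes). In DU145, 9 were tested, of which 1 was called higher and 5 lower (28.8% and 29.2% of all genes), with 3 lower in DESeq2. The summed level of the 18 luminal genes was 471 to 501 CPM with palbociclib and 1100 to 1110 CPM with DMSO in C4-2, and 1700 to 1790 CPM with palbociclib and 2340 to 2540 CPM with DMSO in DU145. Most of it was the keratin KRT8, at 359 ± 8.16 CPM with palbociclib against 876 ± 16.1 CPM with DMSO in C4-2, and 1310 ± 44.2 and 1740 ± 81.7 CPM in DU145. In DU145 FOLH1, KLK2, KLK3, NPY, TMPRSS2 and TRPM8 were at 0. The 12 mesenchymal genes summed to 27300 to 27500 CPM with palbociclib and 29600 to 29700 CPM with DMSO in C4-2, and to 460 to 483 and 523 to 535 CPM in DU145. The 9 leukocyte and erythroid markers summed to 13.5 to 20.7 CPM with palbociclib and 19.2 to 21.6 CPM with DMSO in C4-2, and to 7.46 to 8.27 and 2.87 to 4.33 CPM in DU145, with CD68 among those at 0 in C4-2 and PTPRC and CD3E at 0 in DU145. The part of these markers in the PEG10 and SGCE values was not tested.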

How the data were processed

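Each line has its own table of raw counts, deposited by the authors. Per the file headers, featureCounts 2.0.1 counted paired reads of the C4-2 libraries over Ensembl release 107 exons, unstranded, from HISAT-named alignments. No source used here gives the aligner or counter behind the DU145 table. The build is hg38, per the submitters' processing notes. Per the labels' protocols, a directional kit was used on 1.3 µg of RNA. The gene lengths deposited with the DU145 counts equalled the exon unions of GENCODE release 29 for 57156 of 57167 genes.

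Identifiers of the C4-2 table were given symbols from a reference table (61757 of 61860 matched), and 56668 of 57167 of the DU145 table matched. The members and lists were chosen with earlier results of these data known. Genes were filtered with filterByExpr, scaled by TMM and tested with edgeR 4.0.16 in R 4.3.3 (quasi-likelihood F test, Benjamini-Hochberg adjustment over all genes tested, threshold 0.05), each line alone; a joint fit gave the interaction. CPM used library totals. The SEs given were derived from the F statistic. The 95% confidence intervals treated them as normal and may be too narrow for so few libraries. Ratios used a pseudocount of 0.5 and likeness a prior count of 2. DESeq2 1.42.0, other scalings and filters, a replicate block and leaving out libraries were alternatives. Named were both members, tested neighbours within 1 Mb, up to 4 called members per list and line with the smallest adjusted p, list members of at least 1000 CPM, the 6 most similar genes, and E2F1, RB1, CDK4, CDK6 and CCND1; others named were chosen after their values were seen, and a few genes within this rule are not reported here.

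Replicate libraries lay near counting noise in C4-2, with a chi-square per degree of freedom of 1.14 to 1.18 within groups. In DU145 they lay above it, at 2.36 to 8.34 within groups. Between treatments the values were 14.9 to 17.3 in C4-2 and 61.5 to 67.4 in DU145. No 2 libraries were merged. Every PEG10 and SGCE value rests on at least 267 counts.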

Additional observations from a re-analysis of the deposited data

Results flagged for a closer look

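Among the neighbours of PEG10 and SGCE, 2 genes responded differently in the lines by the interaction term of the joint edgeR fit, in which 33.4% of 18139 genes passed the threshold. For GNG11 the difference (DU145 minus C4-2, log2 fold changes) was -0.98 (SE 0.114, adjusted p 2.53e-08), with 3 of 3 palbociclib libraries lower in DU145 and 3 of 3 higher in C4-2. For BET1 it was -0.53 (SE 0.155, adjusted p 0.00729), with 3 of 3 palbociclib libraries higher in each line. The cause was not tested, and line, counting annotation and depth cannot be told apart in these values.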

How the results depend on the processing

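Over 10 results on the pair, 93 alternatives were run. In 85 of them a tested value kept its direction and call, an untested value moved by less than its error, or a count moved by less than the limit of 1.5 times. In C4-2, DESeq2 called 3793 genes (1800 higher, 1993 lower) where edgeR called 6184, and library totals gave PEG10 a log2 fold change of -2.01. In DU145, PEG10 ranged from -1.44 to -1.35 and was called in every alternative run. SGCE in DU145 was not called without a low-count filter (0.19, adjusted p 0.0779). Leaving out 1 library at a time gave 0.17 to 0.25 for SGCE and -1.44 to -1.35 for PEG10 in DU145, -2.07 to -2.04 for PEG10 in C4-2, and 5035 to 5751 (C4-2) and 8111 to 9054 (DU145) genes called. With library totals the PEG10 interaction was 0.59, and the SGCE interaction, 0.08 as reported and untested, was -0.02, the lowest of 3 alternatives that reached up to 0.05. The cause was not tested. Filters, block and left-out libraries were not run for the interaction. Same-numbered libraries were not taken as pairs, since their deviations correlated at 0.00677 to 0.0292 in C4-2 and 0.02 to 0.128 in DU145, where the pair numbered 3 had the highest value. Without both libraries numbered 3, 9343 genes were called in DU145. With the replicate block SGCE in DU145 had 0.21 (adjusted p 0.00212), PEG10 -1.40, and 9953 genes were called, against 5698 in C4-2. The block also called RB1 higher in DU145 (0.17, adjusted p 0.00248) and moved the dystrophin-complex genes called lower to 10 in DU145 and 2 in C4-2. Among 89 other named values that were checked, 12 gained or lost a call in at least 1 alternative and 0 reversed while called. These alternatives were added after seeing the data. In C4-2 11943 genes could be tested, against 15361 in DU145, and depth, annotation, group size and line cannot be told apart in that difference.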

Other observations

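Of 11007 genes tested in both lines, 39 had a lower log2 fold change than PEG10 in C4-2, 218 in DU145 and 4 in both. The 4 were EDN2, which encodes the vasoactive peptide endothelin 2 (-4.81 in C4-2 and -1.89 in DU145), OLFML2B (-3.19 and -1.60), the receptor tyrosine kinase FGFR3 (-2.71 and -1.49) and C11orf86 (-2.43 and -1.65). They were named after their values were seen.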
